A study of Homo sapiens with 2 samples.

Results

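The transcription factors described here are those that set pancreatic and endodermal identity. The genes GATA6, HNF4A, FOXA1, FOXA2, FOXA3, PDX1, SOX9 and KLF5 were looked up by symbol, and every probe set annotated to exactly 1 of them was taken. Of these 8 genes, 7 were read, by 15 of the 41097 probe sets with 1 gene symbol, which cover 19775 genes. No probe set of the annotation used here is paired with HNF4A, and HNF4A was not analysed here. The cells were AsPC-1, a cell line of human pancreatic ductal adenocarcinoma (PDAC), transfected with siRNA against PGR, the progesterone receptor gene, or with control siRNA. RNA was hybridised to 3′ expression arrays, with 1 array per condition and no replicate culture, so no test between conditions was possible. The question behind the arrays was which transcripts differ when PGR is silenced. The 2 siRNA duplexes given by the study are shown because they define the treatment, and the sources used here do not say which of them was used for the array. Their antisense strands, with the seed (bases 2 to 8) in capitals, read
si-PGR-1: uUGCCUCAaaccaauugcctt
si-PGR-2: uCUUGGGUaauugugcagctt

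GATA6 is a zinc finger factor of early endoderm and pancreas, and its level is widely used to tell the classical from the basal-like form of PDAC. FOXA1, FOXA2 and FOXA3 are forkhead factors that open chromatin for other endodermal regulators, PDX1 marks the pancreatic bud and later the beta cell, SOX9 maintains pancreatic progenitors and ductal cells, and KLF5 is a zinc finger factor of proliferating epithelium. HNF4A is a nuclear receptor that works with them in liver and gut. Factors of this group bind many of the same enhancers and often regulate one another.

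The targeted gene gave no check of the labels. The probe sets of PGR read 73.3 and 4.80 on the siPGR-labelled array, against 16.1 and 1.53 on the control-labelled array. All of these values lie below 97.9, the median of all values of probe sets with 1 gene symbol, which served as signal floor, and their order goes against the labels. Each array is therefore called by its label, and each direction below rests on the labels. With 2% of values trimmed from either end, the mean intensity of each array was 500.1, so the values had been scaled before deposition. Of ductal epithelial markers, 10 of 11 measured reached the floor on both arrays. EPCAM, KRT8, KRT18, KRT19 and CDH1 were bright. KRT7 was dim, at 182 on the siPGR-labelled array and 189 on the control-labelled array. MUC1 was dim too, at 174 and 122 in the same order of arrays, and SPP1 was below the floor on both. Other ductal markers were well above the floor. CFTR read 1276 on the siPGR-labelled array and 1122 on the control-labelled array. CLDN4 read 1405 and 1526, and ELF3 868 and 932, in the same order of arrays. The markers thus bear out epithelium, while those of ducts were mixed in signal. None of 6 acinar and none of 7 endocrine markers reached the floor on either array. Of the defining genes of other cells, the number at the floor was 1 of 8 fibroblast markers on the siPGR-labelled array and 2 of 8 on the control-labelled array, with no endothelial (of 6) or leukocyte (of 5) marker at the floor on the siPGR-labelled array and 1 of each on the control-labelled array. The summed intensity of the fibroblast markers was 543 on the siPGR-labelled array and 536 on the control-labelled array. It was 172 and 295 in the same order of arrays for the endothelial markers, and 231 and 377 for the leukocyte markers. The sums of the acinar markers, 233 and 89, and of the endocrine markers, 105 and 98, came from values below the floor alone. The part of these other cell types in the differences was not tested.

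SOX9, KLF5, GATA6, FOXA1, FOXA2 and FOXA3 had usable signal in AsPC-1 cells, and PDX1 did not. The clearest difference was in KLF5, where 1 of 2 probe sets was 2.60-fold lower on the siPGR-labelled array while the other was 1.09-fold lower. GATA6 was 1.32-fold lower. FOXA2 was 1.52-fold lower by its only probe set past the floor, but its 3 probe sets settled no direction. SOX9, FOXA1 and FOXA3, like GATA6, lay within 1.5-fold. Differences are given on the scale log2(intensity + 1), the siPGR-labelled array minus the control-labelled array. Each difference is set beside the scatter of these arrays, which is the middle 95% of the differences of the 1000 probe sets nearest in mean signal. This scatter cannot separate differences in expression from noise, and it says nothing of the spread between cultures.

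**Figure D1:**
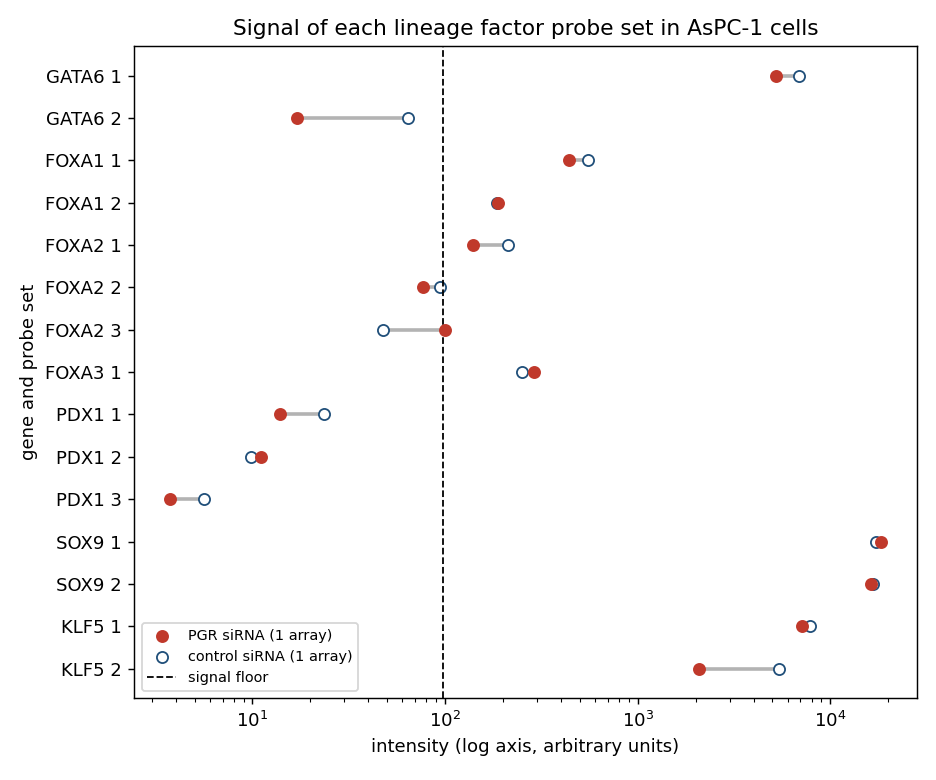
Intensity (log axis) of each probe set of the lineage factors on the siPGR-labelled array (filled) and on the control-labelled array (open), numbered within a gene from the brightest, with the signal floor of 97.9 as a dashed line. The 3 probe sets of PDX1 lie left of the floor on both arrays, and the second probe set of KLF5 shows the widest gap right of it, at 2091 against 5439.

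KLF5 was read by 2 probe sets, both far above the floor on both arrays. The first, 209212_s_at, read 7145 on the siPGR-labelled array and 7808 on the control-labelled array, a log2 difference of -0.13. The second, 209211_at, read 2091 on the siPGR-labelled array and 5439 on the control-labelled array, a log2 difference of -1.38. The probe sets of this gene thus disagreed in size and shared a direction. Among probe sets of like signal the middle 95% of differences ran from -0.41 to 0.32, so that the second probe set lay far outside it, whereas the first lay inside its range of -0.35 to 0.35. Of 2527 probe sets with a mean signal at least that of the second probe set, it was the 1 that fell this far. The probe sets of KLF5 differed from each other by 1.25 on the log2 scale. Of 2997 genes with exactly 2 probe sets at the floor on both arrays, 12 had a gap this wide (0.400%), KLF5 among them, and the median gap was 0.21. The name of the first probe set carries a mark for sequence shared among several transcripts and that of the second does not. Over 1268 genes with 1 marked and 1 unmarked probe set, the median of unmarked minus marked was -0.0030, and 4 of these genes, KLF5 included, were as low as KLF5. Scaling by median centring, quantiles or loess, or an offset of 16, left the second probe set between -1.40 and -1.33.

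RefSeq lists 2 starts for KLF5, 4029 bases apart, and the sequences before them are shown because the probe sets of this gene disagree. Which probe set reads transcripts of which start was not examined. Short words were searched on both strands over the 250 bases before each start in GRCh38.p14, and capitals mark their matches, none of which overlap in the windows shown. The core of KLF sites was searched as CACCC, and sites of GATA factors were searched with the word AGATAA. The forkhead word was spelled TGTTTAC and the half-site of steroid receptors was spelled AGAACA.
KLF5 upstream start, chr13:73054726-73054975, plus strand: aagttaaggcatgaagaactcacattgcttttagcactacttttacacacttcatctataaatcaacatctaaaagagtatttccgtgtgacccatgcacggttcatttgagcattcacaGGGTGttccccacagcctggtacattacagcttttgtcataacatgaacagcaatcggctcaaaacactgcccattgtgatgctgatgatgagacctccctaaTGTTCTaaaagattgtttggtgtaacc
KLF5 downstream start, chr13:73058755-73059004, plus strand: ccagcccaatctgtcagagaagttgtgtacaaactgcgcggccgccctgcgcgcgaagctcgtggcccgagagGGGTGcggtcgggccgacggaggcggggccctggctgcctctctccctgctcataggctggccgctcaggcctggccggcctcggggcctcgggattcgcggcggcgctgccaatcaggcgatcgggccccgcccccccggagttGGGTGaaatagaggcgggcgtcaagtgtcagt
The upstream window holds 1 match of the KLF word and 1 of the steroid receptor word, both on the reverse strand, and has a GC content of 40.8%. The downstream window holds 2 matches of the KLF word and has a GC content of 70.8%. Over 35116 such windows of all genes, 54.7% hold the KLF word and 12.4% the steroid receptor word. The matches are letters and not sites of binding.

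GATA6 was read by 2 probe sets, of which 1 was usable. The bright one, 210002_at, read 5205 on the siPGR-labelled array and 6875 on the control-labelled array, a log2 difference of -0.40. This lay just outside the middle 95% of probe sets of like signal, which ran from -0.38 to 0.35. The other probe set, 229282_at, read 17.0 on the siPGR-labelled array and 64.5 on the control-labelled array, both below the floor, so it gives no usable fold. Where the mean of both probe sets was taken, that dim probe set drew the difference of GATA6 to -1.13. The window before the GATA6 start is printed because the level of GATA6 is used to tell the forms of PDAC apart. It holds 2 matches of the KLF word and none of the GATA, forkhead or steroid receptor words. Of all windows, 9.17% hold the GATA word and 2.98% the forkhead word.
GATA6, chr18:22169339-22169588, plus strand: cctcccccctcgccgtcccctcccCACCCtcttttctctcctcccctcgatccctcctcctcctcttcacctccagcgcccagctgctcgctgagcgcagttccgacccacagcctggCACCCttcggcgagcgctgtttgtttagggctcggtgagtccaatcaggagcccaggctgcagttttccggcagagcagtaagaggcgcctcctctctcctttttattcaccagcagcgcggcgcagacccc

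**Figure D2:**
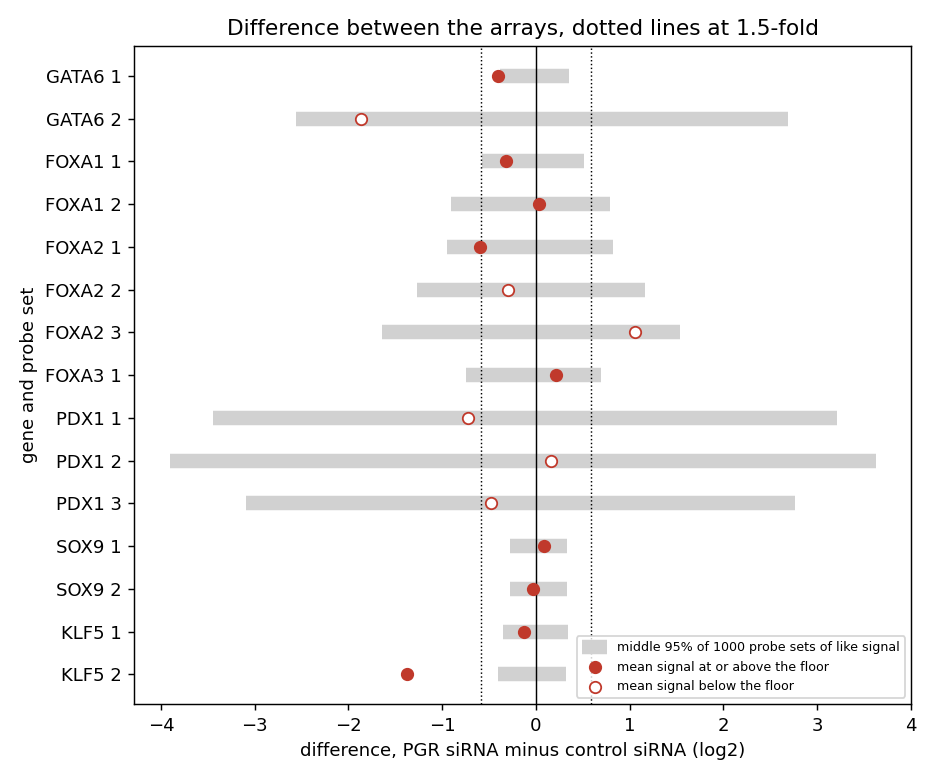
Log2 difference of each lineage factor probe set (points, siPGR-labelled minus control-labelled array), filled where the mean signal reached the floor, over the middle 95% of the 1000 probe sets nearest in mean signal (grey bars), with dotted lines at 1.5-fold. The second probe set of KLF5, at -1.38, lies far left of its bar and the first of GATA6, at -0.40, at the edge of its own.

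The 3 forkhead factors had no common direction. FOXA1, whose first probe set 204667_at read 440.0 on the siPGR-labelled array and 550.2 on the control-labelled array, differed by -0.32. Its second probe set, 237086_at, read 189 and 185 in the same order of arrays, a difference of 0.03. Both differences lay within the scatter of probe sets of like signal, whose middle 95% began at -0.58 for the first and at -0.91 for the second. FOXA2, the forkhead factor of early endoderm and of pancreatic progenitors, was read by 3 probe sets that did not share a direction. The brightest, 40284_at, read 139 on the siPGR-labelled array and 212 on the control-labelled array, a difference of -0.60 and thus just past 1.5-fold. The next, 210103_s_at, read 77.0 and 94.7, both below the floor. The third, 214312_at, read 99.8 on the siPGR-labelled array, barely at the floor, and 47.6, below it, on the control-labelled array, which makes it at least 1.02-fold higher. The brightest probe set of FOXA2 lay within the scatter at its signal, from -0.95 to 0.82, and the mean of all 3 probe sets was 0.05, so the array settles no direction for FOXA2. FOXA3, read by 228463_at alone, stood at 289 on the siPGR-labelled array and 249.8 on the control-labelled array, a difference of 0.21 within a range of -0.75 to 0.69.

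SOX9 had high signal and nearly equal values on the arrays. Its probe set 202936_s_at read 18339.7 on the siPGR-labelled array and 17227 on the control-labelled array, and 202935_s_at read 16219 and 16589 in the same order of arrays. The differences were 0.09 and -0.03, inside a range of -0.27 to 0.33, with opposite signs. Both names carry the mark for shared sequence. PDX1, by contrast, was below the floor with each of its 3 probe sets. They read 13.8, 11.1 and 3.73 on the siPGR-labelled array, against 23.5, 9.83 and 5.60 on the control-labelled array. No fold is given for PDX1, since both arrays are below the floor, and this does not show that the transcript is absent.

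**Figure D3:**
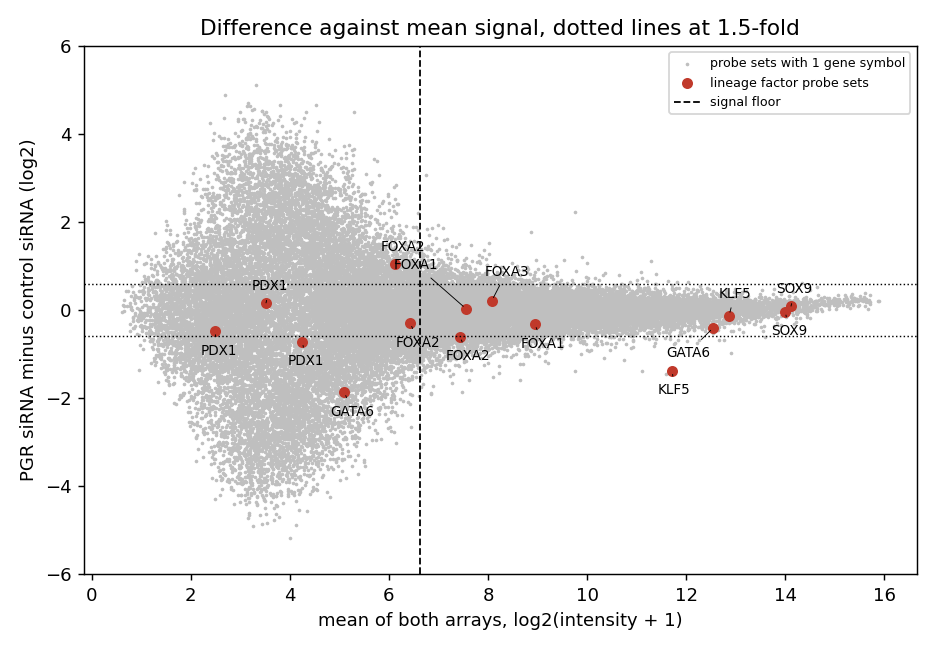
Difference between the arrays (siPGR-labelled minus control-labelled array, log2) against the mean of both arrays as log2(intensity + 1), with 41097 probe sets in grey, the lineage factors in red, the floor as a dashed line and 1.5-fold as dotted lines. The scatter narrows toward high signal, where SOX9 and the first probe set of KLF5 sit inside it and the second probe set of KLF5, at -1.38, below it.

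Counted by gene, with each gene read by its brightest probe set and kept where the mean log2 signal of both arrays reached the floor, 1 of 6 lineage factors was at least 1.5-fold lower on the siPGR-labelled array and none was higher. That gene is FOXA2. Over all 11124 genes kept in this way, 3.03% were at least 1.5-fold lower (337 genes) and 2.45% at least 1.5-fold higher (272 genes). With each array centred on its median, 264 were lower and 348 higher. Counted by probe set, 2 of 9 lineage factor probe sets were at least 1.5-fold lower and none was higher, against 4.19% lower and 2.99% higher of 20300. At 2-fold, the second probe set of KLF5 remained the 1 below, against 0.626% of probe sets. Because KLF5 is read by its brighter probe set in the count by gene, its low probe set enters the second count only. The median difference of the 6 genes was -0.22, with 4 below 0 and 2 above, and that of all 11124 genes was 0.02. Of all 11124 genes, 5143 were below 0 and 5981 above. The median of the 6 genes was -0.06 with all probe sets averaged. Each count of lineage factors rests on 1 or 2 probe sets, too few to read a share from.

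Other factors of pancreatic and gut endoderm were mostly below the floor in these cells. Here and in the lists that follow, a gene is counted by its brightest probe set. Of 26 measured, 7 passed the floor, none of them 1.5-fold apart by that probe set, with a median of 0.04. These were HES1, a Notch target of progenitors, at -0.38, and HHEX, a homeobox factor of foregut endoderm, at -0.37. Each had another probe set past the floor that lay beyond 1.5-fold, at -0.72 for HES1 and at -0.84 for HHEX. HES1 stood at -0.04 once its probe set below the floor was averaged in. BHLHA15, which drives secretory differentiation of acinar cells, was highest at 0.38, and MNX1, a homeobox factor of the early pancreas, stood at 0.12. HNF4G, the paralog of HNF4A, stood at -0.19, CDX2, the intestinal homeobox factor, at 0.08, and TCF7L2, an effector of Wnt signalling, at 0.04. With a probe set below the floor averaged in, HNF4G stood at 0.27. The sign of the list median turned with the signal filter. It was -0.19 with the floor reached on at least 1 array, -0.13 with no filter and -0.07 with a floor set by olfactory receptor probe sets. GATA4 and GATA5, the other endodermal GATA genes, and ONECUT1, PROX1 and SOX17, factors of the pancreatic bud or of definitive endoderm, were below the floor on both arrays. Of protein partners of the factors, 5 of 8 measured passed the floor, none 1.5-fold apart by the brightest probe set. ZFPM1, a GATA cofactor, stood at 0.52 and PBX2, a TALE homeobox protein, at 0.43. With a probe set below the floor averaged in, ZFPM1 stood at -1.20. The 4 probe sets of PBX2, all past the floor, took both signs and ranged from -0.42 to 0.64. PPARGC1A, a coactivator that HNF4A binds, stood at -0.22 and PBX3 at -0.05.

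The long non-coding RNAs that lie beside these genes were read where probe sets existed. GATA6-AS1, transcribed divergently from GATA6, read 391 on the siPGR-labelled array and 297 on the control-labelled array, a difference of 0.40, and GATA6 itself stood at -0.40. SOX9-AS1 read 226 on the siPGR-labelled array and 178 on the control-labelled array, a difference of 0.34. GATA6-AS1 and SOX9-AS1 both lay within the scatter at their signal, whose middle 95% reached 0.65 and 0.76. With a probe set below the floor averaged in, SOX9-AS1 stood at -1.55. LINC00261, beside FOXA2, and HNF4A-AS1 were below the floor on both arrays.

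Most relatives of KLF5 were below 0 by their brightest probe set. Of 16 KLF genes measured, 12 passed the floor, none of them 1.5-fold apart by that probe set. Of the 12, 10 were below 0, against 5143 of all 11124 genes kept. The median of the 12 was -0.17, against 0.02 over all genes. KLF2, a factor of vascular and T cell quiescence, was lowest at -0.58, with its probe sets at -0.59 and -0.58, and KLF4, a factor of epithelial differentiation, stood at -0.46 with its other probe set at -0.06. Each lay outside the middle 95% of probe sets of like signal. KLF16 was highest at 0.48, followed by KLF12 at 0.11, whose probe sets ranged from -0.66 to 0.40. With a probe set below the floor averaged in, KLF16 stood at -0.0015. Besides KLF2 and KLF12, other probe sets past the floor also lay beyond 1.5-fold in KLF7, at the lowest -0.70, and in KLF13, at -0.71. Of other GATA and SOX genes, 9 of 19 measured passed the floor, 4 of them at least 1.5-fold lower by the brightest probe set. Over all genes kept, 3.03% were this much lower. The median of the 9 genes was -0.58. That size rests on the choice of probe set, since the median was -0.24 with all probe sets of a gene averaged and -0.34 with unmarked probe sets alone, over 6 genes in either case. The 4 genes were SOX8 at -0.83, with its value on the siPGR-labelled array below the floor, SOX12 at -0.73, SOX13 at -0.65 and SOX7 at -0.59. SOX12 was outside the scatter at its signal. SOX8, SOX13 and SOX7 were inside the scatter at theirs, and another probe set of SOX13 stood at -0.28. With probe sets below the floor averaged in, SOX12 stood at -0.30 and SOX7 at -0.17. Of this list SOX6 at 0.01 and SOX4 at -0.03 were highest, and SOX4 was the 1 gene of the list past a floor at the 75th percentile of all values. Among epithelial factors, 11 of 12 passed, none 1.5-fold apart by the brightest probe set, with a median of -0.09. Another probe set of TFCP2L1 past the floor stood at 0.77. GRHL3, a grainyhead factor of barrier epithelium, stood at -0.56, outside the scatter at its signal. GRHL2 stood at 0.18 and SPDEF, a factor of goblet cells, at 0.17. With probe sets below the floor averaged in, SPDEF stood at -0.30. KLF4 is in this list too.

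**Figure D4:**
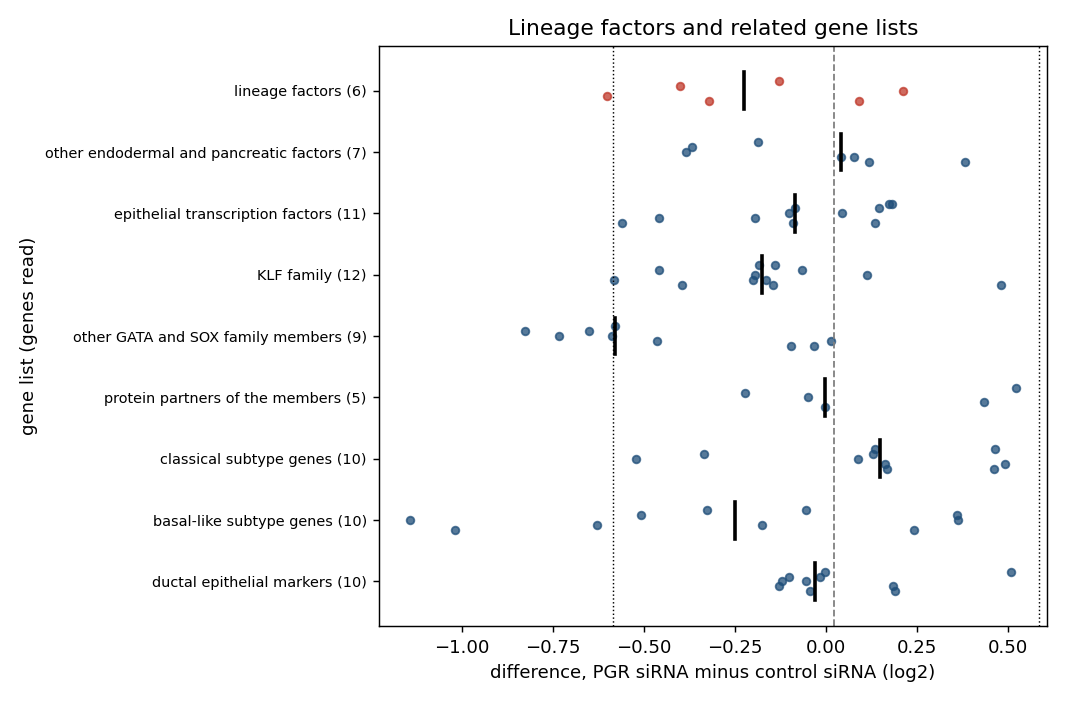
Log2 difference (siPGR-labelled minus control-labelled array) of each gene past the floor, in the lineage factors (red) and in related lists (blue), with the list median as a black bar, the median of all genes at 0.02 as a dashed line and 1.5-fold as dotted lines. The median of other GATA and SOX genes, at -0.58, lies farthest left and that of classical subtype genes, at 0.15, farthest right.

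Genes that mark the classical and basal-like forms of PDAC, for which GATA6 is known as a regulator, were read for comparison. Of 22 classical genes measured, 10 passed the floor, none of them 1.5-fold apart, and their median was 0.15. Of the 10, 8 were above 0, against 5981 of all 11124 genes kept. TFF1, a trefoil peptide of mucous epithelium, stood at 0.49 and PRR15L at 0.46, the second outside the scatter at its signal. AGR2, a protein disulfide isomerase of mucin secretion, read 27208 on the siPGR-labelled array and 19752.5 on the control-labelled array, a difference of 0.46 outside the scatter at its signal, with its other probe set at 0.54. KRT20, an intestinal keratin, was lowest at -0.52, also outside the scatter at its signal, followed by LGALS4, a galectin of gut epithelium, at -0.33. Of 19 basal-like genes measured, 10 passed the floor, 3 of them at least 1.5-fold lower and none higher. Over all genes kept, 3.03% were at least 1.5-fold lower and 2.45% higher. The median of the basal-like genes was -0.25, or -0.51 with unmarked probe sets alone. CST6, a cystatin, stood at -1.02 and CTSV, a cathepsin, at -0.63, both outside the scatter at their signal. FAM83A, outside it too, stood at -1.14 with its value on the siPGR-labelled array below the floor. With probe sets below the floor averaged in, FAM83A stood at -0.09. Another probe set of SLC2A1, a glucose transporter, stood at -0.87 and its brightest at -0.18. FGFBP1, a carrier of fibroblast growth factors, was highest of those at the floor on both arrays at 0.36, followed by S100A2 at 0.24. The lists come from general knowledge of PDAC subtypes and carry no test, and 1 gene, KRT7, is also among the ductal markers.

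Of beta cell targets of PDX1, none of 5 measured reached the floor on either array, as PDX1 itself did not. GLI2 was the 1 gene past the floor of 4 measured factors tied to the basal-like or squamous form, at 0.08. Among ductal markers KRT19, which SOX9-positive ducts express, stood at -0.13 and CLDN4 at -0.12. MUC1 stood at 0.51 and KRT18 at 0.19. With probe sets below the floor averaged in, MUC1 stood at -0.61. The median of the 10 ductal markers past the floor was -0.03, which turned to 0.02 with each array centred on its median.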

How the data were processed

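Transcripts of AsPC-1 cells with PGR siRNA or control siRNA were measured on single arrays. A linear intensity per probe set and array, scaled to a common level, was deposited by the authors. The summary algorithm, the background correction and the scaling method are not given in the sources used here. Scaling removes a difference in overall brightness. Precision is limited by the number of arrays. Detection calls were not used here.

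Probe sets were named from the platform annotation, in which 41097 had 1 symbol, 1801 had several and 11777 had none, and the last groups were left out. Symbols were updated by gene identifier to RefSeq (GRCh38.p14) for 41043. Values were compared as log2(intensity + 1). A gene was read by its brightest probe set and kept where its mean over the arrays reached 97.9, the median of all named values, since a mean does not favour genes that differ. With 1 array per condition no p-value was computed, and 1.5-fold is a rule of size. The members and lists were chosen with earlier results of these data known. All members are named, and of each list other than those of other cell types, which are given by counts, the 2 highest and 2 lowest differences at the floor on both arrays, while further list genes were named after their values were seen. One further list of target genes is not reported here. Likeness of pattern was not ranked, since 2 arrays give 1 difference per gene. Sequences are from RefSeq (GRCh38.p14), where 4 of the 7 genes read had a window (GATA6, FOXA1, FOXA3 and KLF5), and from the study's siRNA table. FOXA2, PDX1 and SOX9 had no window. The calculation was tested on simulated data. Python 3.11.15, numpy 2.4.6, pandas 2.3.3, statsmodels 0.14.6 and matplotlib 3.10.9 were used.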

Additional observations from a re-analysis of the deposited data

How the results depend on the processing

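Each array stands for 1 culture, so no setting measures biological spread. A value counts as moved when it changed by more than 0.26 on the log2 scale, the SD between probe sets of a gene at the floor on both arrays. The count of lineage factors past 1.5-fold, 1 in the setting used (FOXA2, which lies at the line), was 2 with all probe sets averaged, with unmarked ones alone and with no filter. It was 0 with median centring, quantile normalization, loess, an offset of 16, a floor at the 75th percentile and a 2-fold rule. The count of their probe sets, 2 in the setting used, was 1 with median centring, quantile normalization, loess, an offset of 16, the 75th percentile and a 2-fold rule, and 5 with no filter. FOXA2 turned to 0.053 with all probe sets averaged. No unmarked probe set of SOX9 exists among those read, so that setting gave no value for it.

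The median of other GATA and SOX genes was -0.24 with all probe sets averaged and -0.033 at the 75th percentile, where 1 gene was left. The medians of the KLF family (-0.20 to -0.12), classical genes (0.11 to 0.20) and basal-like genes (-0.51 to -0.20) kept their sign over 11 alternatives each, and that of the lineage factors ran from -0.40 to -0.06. That last median, that of other GATA and SOX genes and the settings of the second KLF5 probe set were added after the data were seen. No paired analysis was possible because each condition has 1 array.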

Other observations

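Besides KLF5, 11 genes with exactly 2 probe sets at the floor on both arrays had a gap of at least 1.25 between them on the log2 scale. They were looked up after the gap in KLF5 was seen. Among them, ATAD3B, a mitochondrial ATPase, stood at -1.59 and 0.53, SLC37A4, the glucose 6-phosphate transporter of the endoplasmic reticulum, at -1.37 and 0.11, and FAM111B, a protease, at -1.12 and 0.19. DTD2, a deacylase of charged tRNA, stood at -1.25 and 0.16, and SLC20A2, a phosphate transporter, at -0.93 and 0.33. AASS, an enzyme of lysine breakdown, stood at -0.37 and 1.16 and DPYSL3 at 0.10 and 1.44. In each of these 11 genes the dimmer probe set had a mean log2 signal of at most 8.65, whereas the dimmer probe set of KLF5 had a mean log2 signal of 11.72.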
